A study of Mus musculus with 13 samples.

Results

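The genes described here are 9 genes of transcription factors: the AP-1 genes Fos, Fosb, Fosl2, Jun, Junb and Jund, their partner gene Batf, and the effector Treg factor genes Irf4 and Prdm1. They were chosen by symbol, and 9 of 9 were found among the 26720 genes of the count table. RNA was read in 13 libraries of CD4+YFP+ spleen cells from mice about 4 to 5 weeks old, sorted on a YFP reporter carried by a Cre allele at Foxp3, the gene that defines regulatory T (Treg) cells. In the 6 deleted libraries (Foxp3YFPCre/+Stk3∆/∆Stk4∆/∆) that Cre removes Stk3 and Stk4, which encode the Hippo kinases MST2 and MST1. The 7 control libraries (Foxp3YFPCre) carry the Cre without the deletions. The deleted genotype is written with 1 Cre allele (Foxp3YFPCre/+) and the control genotype without a zygosity. Foxp3 lies on the X chromosome, and the labels give no sex. The groups may therefore differ in sex or in zygosity of the Cre allele, which cannot be told apart from the deletions. The labels do not tie libraries to mice, so each p-value is set by spread among libraries, which may be technical.

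AP-1 is a dimer of basic leucine zipper (bZIP) proteins, in most cases a Fos protein with a Jun protein, and it switches on genes after antigen receptor and stress signals. BATF lacks the activation domain of Fos proteins, pairs with Jun proteins and binds composite sites together with IRF4. In Treg cells BATF and IRF4 are known to drive the step from resting cells to effector Treg cells. Blimp-1, the product of Prdm1, is a factor of those effector cells.

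Batf, Junb and Fos fell in the deleted libraries, to about 0.205, 0.362 and 0.463 of their control levels, and in each of them every deleted library was below every control library. The other 6 genes did not pass the test: Irf4 and Fosb had log2 fold changes of -0.78 and -0.98, Prdm1, Jun and Fosl2 of -0.33, -0.18 and -0.14, and Jund of 0.15. None of the 9 rose. Of all 24068 genes tested, 8.52% were lower and 1.66% higher. Genes with at least 50 mean CPM (counts of a gene scaled to library size), the range that holds Fos, Jun, Junb, Jund and Batf, were lower in 23.8% of cases. Every deleted library was below every control library in 1.44% of all genes, above every one in 0.673%, and below in 3.31% of genes of at least 50 mean CPM. The test was edgeR's quasi-likelihood F test, with p adjusted by Benjamini-Hochberg over all genes and called below 0.05.

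**Figure D1:**
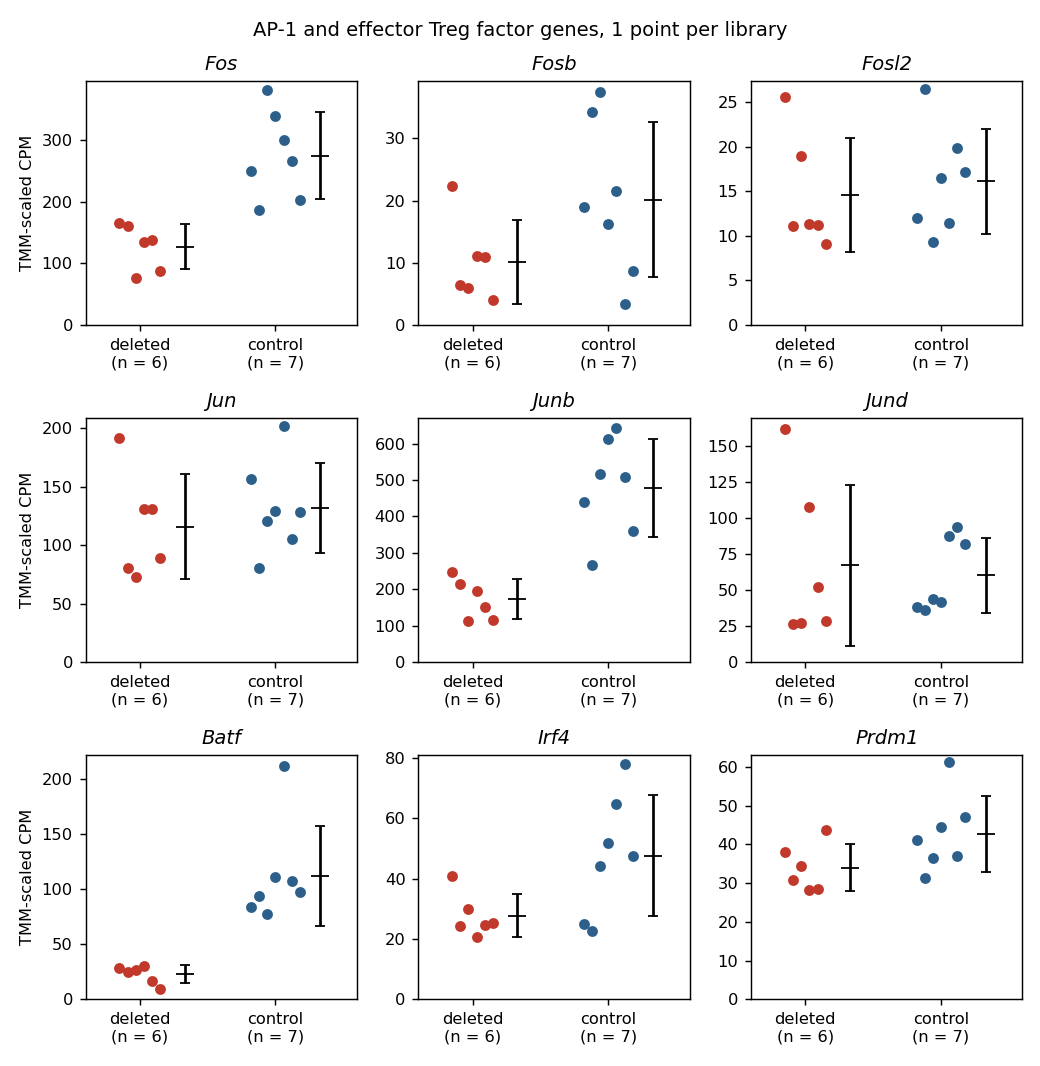
Each point is the TMM-scaled CPM of 1 gene in 1 library, deleted libraries at the left and control libraries at the right of each panel, with the mean and SD as a bar. Fos, Junb and Batf show no overlap between the groups, whereas the ranges of the other 6 genes overlap.

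The libraries differed in more than these genes. Total counts ranged between 2671660 and 4569655 in deleted and between 3705511 and 8323919 in control libraries. Receptor genes of the nose (olfactory and vomeronasal), genes of sensory neurons, took 0.752 to 1.87% of counts in deleted and 0.366 to 1.06% in control libraries. The exact permutation test of this share gave a two-sided p of 0.00699 (adjusted p = 0.0236 over 9 library measures). Of 8 marker genes of Treg and CD4 T cells, 6 were lower in deleted libraries and their summed level was 1031 to 2142 CPM there, against 1555 to 6051 CPM in control libraries. An exact permutation test of that sum gave a two-sided p of 0.0105 (adjusted p = 0.0236). Cd3e was at -1.35, Trac at -1.03 and Cd4 at -1.01 on the log2 scale, a size near that of Fos. The markers not called were Il2ra (-1.01, adjusted p = 0.0587) and Foxp3 (-0.30, adjusted p = 0.463). With receptor share as covariate, in a fit given below, Cd3e was at -0.31, Trac at -0.16, Cd4 at 0 and Fos at -0.70. None of them was called there, and whether Fos differed from the markers was not tested. In bulk samples, fewer cells of a type and less RNA per cell cannot be told apart. The targeted genes Stk3 (log2 fold change -0.01, adjusted p = 0.981) and Stk4 (-0.31, adjusted p = 0.576) did not pass the test. Stk4 was at 394 CPM in the library labelled deleted replicate 1, above every control library (136 to 291 CPM), while the other deleted libraries lay between 57.9 and 204 CPM and 3 of them below every control library. Whole-gene counts cannot show whether single exons were lost, so they do not settle that library's label. Without it 5 of the 9 members were lower, with Batf at -2.36, Junb at -1.60 and Fos at -1.20. Calls also rose over all genes, to 2518 of 24240 lower and 602 higher, from 2050 of 24068 lower and 400 higher with that library. Whether receptor share, T cell RNA or depth had a part in the members' values was not tested beyond the fits given below.

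Batf (gene number 53314; GRCm38 chromosome 12, 85686720 to 85709087) changed most. Its level was lowest at 9.42, with a median of 26.1 and a highest value of 30.7 CPM in deleted libraries, against 77.3, 97.2 and 211 CPM in control libraries. The groups were far apart, and the highest deleted library lay below the lowest control library by more than the whole range of the deleted group. On the log2 scale Batf fell by 2.29 (SE 0.28, adjusted p = 3.08e-05). It was read from 33 to 127 counts in deleted and 340 to 1182 counts in control libraries, and deleted replicate 7, with the 33 counts, also had the largest receptor share. There the median receptor gene had 22 counts. A fit with receptor share as covariate called 0.233% of all genes lower and 0.224% higher, and in it Batf was at -1.56 (SE 0.24, adjusted p = 0.00139). In the 5 deleted and 4 control libraries of similar receptor share (0.7 to 1.4%), where 0.418% of all genes were lower and 0.157% higher, Batf was at -1.78 (SE 0.21, adjusted p = 8.96e-05).

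Irf4 (gene number 16364; chromosome 13, 30749233 to 30766981), which encodes the interferon regulatory factor that BATF-Jun dimers recruit, was lowest at 20.8, with a median of 25.0 and a highest value of 41.0 CPM in deleted libraries. In control libraries the same values were 22.6, 47.4 and 78.0 CPM. The ranges overlapped: 5 of 7 control libraries lay above every deleted library, while control replicates 1 and 2, at 24.9 and 22.6 CPM, lay among the deleted ones. Its log2 fold change was -0.78 (SE 0.26, adjusted p = 0.057). Leaving out deleted replicate 1 let Irf4 pass (adjusted p = 0.0251), as did leaving out control replicate 1 (0.0239) or control replicate 2 (0.0119). DESeq2, which called 12% of its genes lower and 3.24% higher, also called it (adjusted p = 0.0425). In the covariate fit Irf4 was at -0.01 (SE 0.28, adjusted p = 0.996).

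Prdm1 (gene number 12142; chromosome 10, 44437174 to 44528558), the gene of the repressor Blimp-1, spread least of the 9 genes. Its lowest, median and highest levels were 28.3, 32.6 and 43.7 CPM in deleted against 31.2, 41.1 and 61.3 CPM in control libraries. Of the deleted libraries, 5 of 6 lay below the control median, within overlapping ranges. The log2 fold change of -0.33 (SE 0.20, adjusted p = 0.306) did not pass the test, with an interval of -0.74 to 0.08 (95%). Scaling by genes of at least 50 mean CPM turned its direction, to 0.10.

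Plasma cells also use Irf4 and Prdm1 at high levels. Summed CPM of 8 plasma cell markers was 105 to 129 in deleted and 105 to 149 in control libraries, 0 of 8 passed the test, and the defining marker Jchain was at 2.17 to 12.5 CPM in deleted against 1.20 to 15.6 CPM in control libraries. B cell markers summed to 158 to 234 CPM in deleted against 382 to 1106 CPM in control libraries, a difference mostly of Ighm, at 85.2 against 596 mean CPM (log2 fold change -2.81). Of these 8 B cell genes, Ighm and Cd79b fell and Ms4a1 rose. The part of B cell RNA in the values of Batf, Irf4 and Junb, which B cells also express, was not tested.

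Fos (gene number 14281; chromosome 12, 85473890 to 85477274), the first described Fos gene and an immediate early gene, was lowest at 77.1, with a median of 136 and a highest value of 166 CPM in deleted libraries, against 187, 266 and 381 CPM in control libraries. All 6 deleted libraries lay below the lowest control library, though deleted replicates 1 and 2 were near it. Fos fell by 1.11 on the log2 scale (SE 0.25, adjusted p = 0.00798). In the covariate fit it was -0.70 (SE 0.24, adjusted p = 0.311), and in libraries of similar receptor share it was -0.92 (SE 0.27, adjusted p = 0.162), so that the call ended in both.

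Fosb (gene number 14282; chromosome 7, 19302696 to 19310118), an immediate early gene like Fos, had few counts, 14 to 93 in deleted and 17 to 165 in control libraries. Its lowest, median and highest levels were 4.00, 8.69 and 22.4 CPM in deleted against 3.40, 19.0 and 37.5 CPM in control libraries, and the control library with the lowest value lay below every deleted one. The log2 fold change of -0.98 (SE 0.43, adjusted p = 0.148) did not pass the test. Without deleted replicate 1, which had the highest Fosb of its group, it was -1.38 (adjusted p = 0.0362).

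Fosl2 (gene number 14284; chromosome 5, 32136472 to 32157840) encodes Fra-2, a Fos protein that responds later. Its range was 9.13 to 25.6 CPM in deleted against 9.32 to 26.4 CPM in control libraries, and these ranges nearly coincided. The log2 fold change was -0.14 (SE 0.30, adjusted p = 0.808), with an interval of -0.75 to 0.48 (95%), and upper quartile scaling, scaling by genes of at least 50 mean CPM and leaving out control replicate 2 turned its direction.

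Junb (gene number 16477; chromosome 8, 84976909 to 84978748), a Jun gene known to be needed for IRF4- and BATF-dependent effector Treg programs, was lowest at 112, with a median of 174 and a highest value of 247 CPM in deleted libraries. In control libraries the lowest, median and highest levels were 267, 507 and 643 CPM. The groups did not overlap, and control replicate 2 was the lowest of its group. Junb fell by 1.47 on the log2 scale (SE 0.28, adjusted p = 0.00284). In the covariate fit it was -0.81 (SE 0.22, adjusted p = 0.133) and in libraries of similar receptor share -1.10 (SE 0.27, adjusted p = 0.0708), neither of which passed the test.

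Jun (gene number 16476; chromosome 4, 95049036 to 95052222), which encodes c-Jun, was lowest at 72.4, with a median of 110 and a highest value of 192 CPM in deleted libraries, against 80.2, 128 and 202 CPM in control libraries. The ranges overlapped almost fully. The log2 fold change was -0.18 (SE 0.25, adjusted p = 0.68), with an interval of -0.70 to 0.33 (95%), and it was above 0 with upper quartile scaling, scaling by genes of at least 50 mean CPM, the fit on those genes alone, and the covariate.

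Jund (gene number 16478; chromosome 8, 70697739 to 70700616), in most cells a constantly expressed Jun gene, was the most uneven of the 9 in the deleted group. Deleted replicates 1 and 4, at 162 and 107 CPM, lay above every control library, whereas deleted replicates 2, 3 and 7, at 26.2, 27.1 and 28.8 CPM, lay below every one. Control libraries lay between 35.9 and 94.0 CPM. Its log2 fold change of 0.15 (SE 0.37, adjusted p = 0.831) did not pass the test, and it moved widely with the setting. It was -0.32 without deleted replicate 1 and -0.03 without deleted replicate 4, but 0.54 with scaling by genes of at least 50 mean CPM, 0.58 in libraries of similar receptor share and 1.03 in the covariate fit (SE 0.35, adjusted p = 0.311), none past the test. Per kilobase of annotated span, Jund had 35.1 counts in deleted replicate 7, where short receptor genes averaged 30.1 counts per kilobase, and 233 in deleted replicate 1, where receptors averaged 20.3. The low Jund values therefore stood close to the receptor level.

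Ratios of counts between 2 genes within a library do not depend on how libraries are scaled, and they show whether members changed by unequal amounts. The Junb/Jun ratio had a lowest, median and highest value of 1.16, 1.39 and 2.67 in deleted libraries, against 2.81, 3.33 and 4.82 in control libraries. All 6 deleted libraries lay below every control library, although deleted replicate 2 came close. Log2 ratios averaged 0.60 ± 0.43 in the 6 deleted and 1.86 ± 0.34 in the 7 control libraries (SD), a difference of -1.26 (two-sided exact permutation p = 0.000583, the smallest this design allows; adjusted p = 0.00262 over 9 ratios). Among genes of at least 50 mean CPM, 1.08% had a ratio to Jun that was lower in every deleted than in every control library. In libraries of similar receptor share the difference was -1.06 (two-sided exact permutation p = 0.0159). With the receptor level per kilobase taken off each gene it was -1.19 (two-sided exact permutation p = 0.00233), and the groups then overlapped, with a highest deleted ratio of 3.40 against a lowest control ratio of 3.07.

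Of the counts of the 3 Jun genes together, Junb took 41.1 to 66.8% in deleted and 63.2 to 78.2% in control libraries. Jun took 25.0 to 39.0% in deleted and 14.9 to 24.7% in control libraries, so that only the Jun shares, of these 2 genes, did not overlap. Per kilobase of annotated span, median Junb counts were 386 in deleted and 1254 in control libraries, median Jun counts 137 in deleted and 171 in control libraries, and median Jund counts 56.1 in deleted and 83.7 in control libraries. Junb thus led the family per length in the medians of both groups. Receptor genes had medians of 27.2 counts per kilobase in deleted and 20.9 in control libraries.

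**Figure D2:**
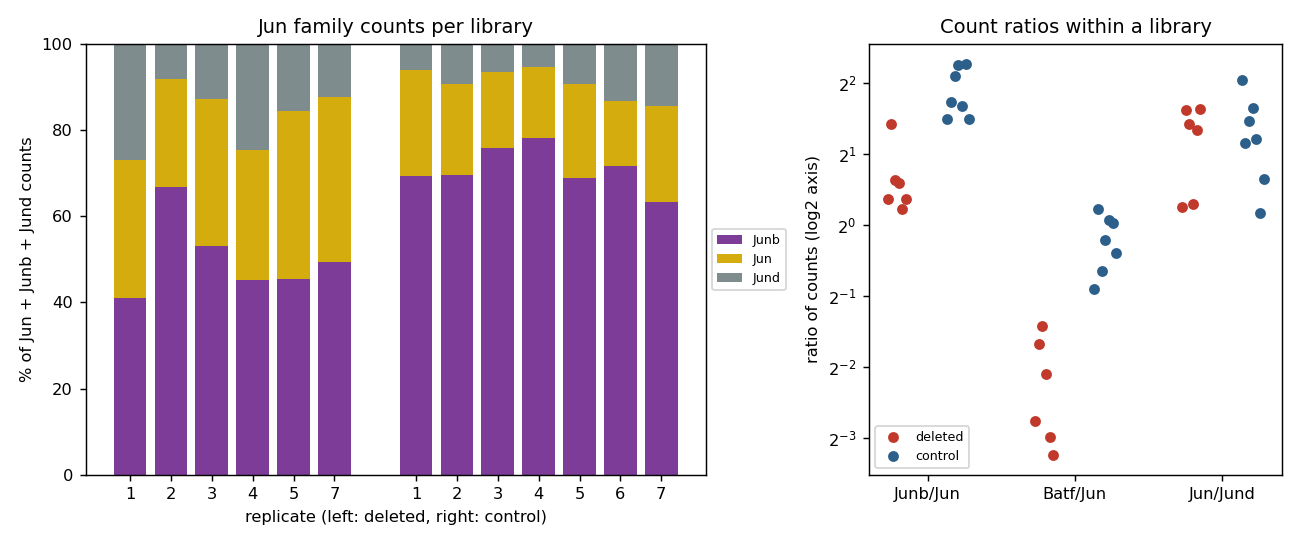
The left panel gives the percentage of the summed Jun, Junb and Jund counts that each gene took in each library (deleted libraries left, control libraries right), and the right panel gives count ratios per library on a log2 axis. Junb/Jun was at most 2.67 in deleted and at least 2.81 in control libraries, Batf/Jun at most 0.374 in deleted and at least 0.535 in control libraries, and Jun/Jund overlapped.

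Batf fell relative to its dimer partners. The Batf/Jun ratio had a lowest, median and highest value of 0.106, 0.191 and 0.374 in deleted and of 0.535, 0.862 and 1.17 in control libraries, with no overlap. The log2 difference was -2.10 (two-sided exact permutation p = 0.000583, the smallest this design allows; adjusted p = 0.00262), and -1.76 in libraries of similar receptor share (two-sided exact permutation p = 0.00794, the smallest there). Against Irf4, its partner on composite sites, Batf had ratios of 0.371 to 1.48 in deleted and 1.38 to 4.15 in control libraries, a log2 difference of -1.62 (two-sided exact permutation p = 0.00175, adjusted p = 0.00524). Batf/Junb differed by -0.84 (two-sided exact permutation p = 0.014, adjusted p = 0.0252), with ranges that overlapped, and it missed the threshold in libraries of similar receptor share (two-sided exact permutation p = 0.0873).

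The remaining ratios were less clear. Junb/Jund differed by -1.36 on the log2 scale (two-sided exact permutation p = 0.0111, adjusted p = 0.0249), and this fell away once the receptor level was taken off (-0.67, two-sided exact permutation p = 0.377). Fos/Fosl2 differed by -0.97 (two-sided exact permutation p = 0.046, adjusted p = 0.0691). Fos/Fosb (-0.25), Fosb/Fosl2 (-0.72) and Jun/Jund (-0.10) had adjusted p of 0.763, 0.387 and 0.776 by the same exact permutation test. Junb and Jun thus changed by unequal amounts, whereas no such difference was shown between Fos and Fosb.

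Other scalings left the set of called members at Batf, Fos and Junb. With DESeq2's size factors, under which 7.7% of all genes were lower and 1.62% higher, 3 members were lower and 0 higher. The same counts of members held with upper quartile scaling (5.02% of all genes lower, 3.16% higher), with scaling by genes of at least 50 mean CPM (2.67% lower, 4.72% higher) and in the fit on those genes alone (15.6% lower, 9.38% higher). Only Batf was called in the covariate fit and in libraries of similar receptor share.

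**Figure D3:**
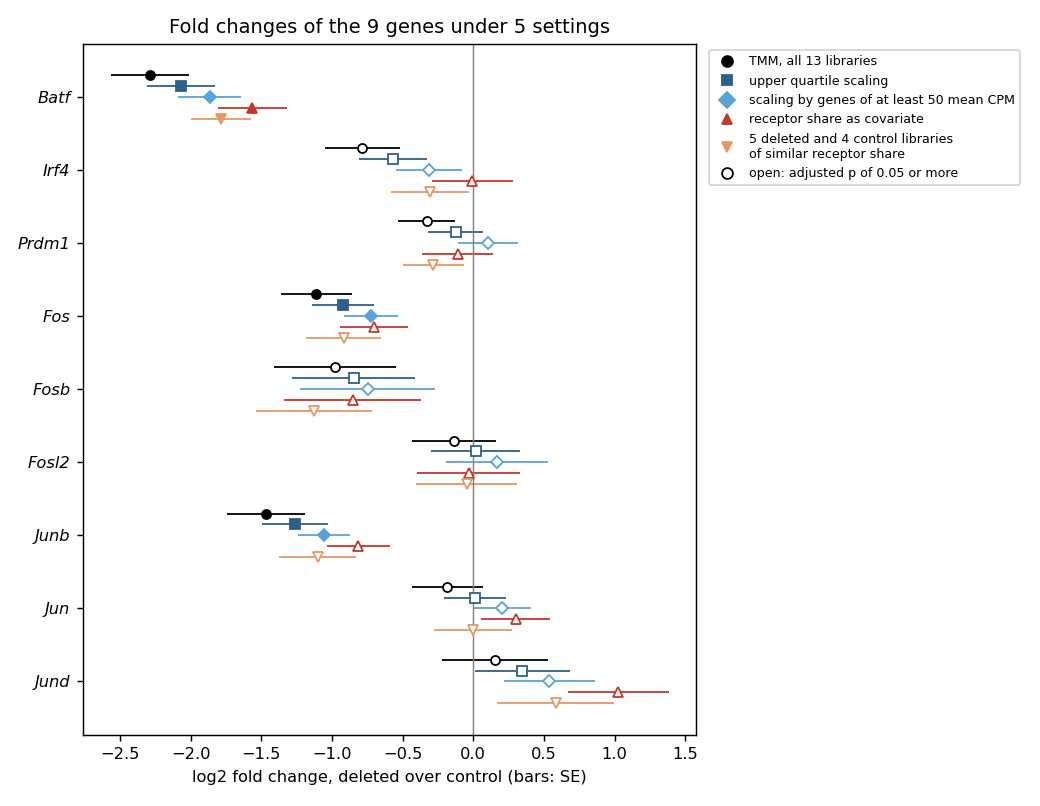
Each symbol is the log2 fold change of deleted over control with its SE, filled where the adjusted p was under 0.05, for 5 settings per gene. Batf stays filled in all 5, between -2.29 and -1.56, Fos and Junb are filled in the 3 fits on all libraries without covariate, and Irf4, Prdm1, Fosb, Fosl2, Jun and Jund are open throughout.

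Promoter sequences of the 3 genes that fell, and of Jun for contrast, are shown because the 4 genes share dimers but not their response. RefSeq promoters (build GRCm38.p6) were matched for 9 of 9 genes. Each line gives the 250 bases before the annotated start, 5′ to 3′ on the gene's strand, with Batf at chr12:85686470-85686719 (+), Junb at chr8:84978749-84978998 (-), Fos at chr12:85473640-85473889 (+) and Jun at chr4:95052223-95052472 (-). Capitals mark matches on either strand to TGANTCA (the AP-1 site), TGACNTCA (the CRE, or cAMP response element), TGACGT (a shortened CRE, which can overlap the full one), TATAAA (the TATA box), CCAAT (bound by NF-Y), the kappaB motif and the CArG box.
Batf: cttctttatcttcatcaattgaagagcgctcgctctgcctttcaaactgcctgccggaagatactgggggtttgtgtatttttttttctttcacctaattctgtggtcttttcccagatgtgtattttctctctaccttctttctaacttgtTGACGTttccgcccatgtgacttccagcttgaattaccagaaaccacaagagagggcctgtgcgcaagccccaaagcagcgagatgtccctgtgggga
Junb: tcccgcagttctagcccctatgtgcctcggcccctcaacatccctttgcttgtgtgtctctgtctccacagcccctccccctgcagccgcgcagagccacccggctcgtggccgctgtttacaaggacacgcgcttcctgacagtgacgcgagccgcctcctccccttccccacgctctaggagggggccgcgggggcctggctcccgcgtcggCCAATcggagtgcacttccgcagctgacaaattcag
Fos: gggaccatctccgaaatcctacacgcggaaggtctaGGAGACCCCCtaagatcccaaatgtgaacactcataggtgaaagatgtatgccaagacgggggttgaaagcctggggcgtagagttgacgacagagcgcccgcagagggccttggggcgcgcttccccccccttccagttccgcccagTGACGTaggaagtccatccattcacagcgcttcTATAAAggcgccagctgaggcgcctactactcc
Jun: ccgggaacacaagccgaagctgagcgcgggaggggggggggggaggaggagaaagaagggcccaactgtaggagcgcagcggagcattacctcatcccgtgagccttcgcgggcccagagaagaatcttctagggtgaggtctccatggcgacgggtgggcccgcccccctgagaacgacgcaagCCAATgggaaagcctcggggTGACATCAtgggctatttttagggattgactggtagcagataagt

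The Batf and Fos promoters each held TGACGT, at -98 to -93 and -66 to -61 from the start, a word found in 6.56% of the 27025 promoters of this length. Jun held TGACATCA at -45 to -38, a match to TGACNTCA, found in 7.59% of promoters. A TATAAA word lay at -33 to -28 in Fos and at -26 to -21 in Irf4, against 13% of promoters. Junb held CCAAT at -36 to -32, Jun at -65 to -61 and Prdm1, on the other strand, at -31 to -27. This word was found in 34.5% of promoters. Matches to kappaB, the motif of Rela and its relatives, lay in Fos, Fosb and Fosl2 (7.01% of promoters), those in Fosl2 overlapping each other, and not in these bases of Batf or Junb. TGANTCA, found in 6.87% of promoters, occurred only in Prdm1 of the 9, at -48 to -42, and the CArG box, found in 1.4%, in none. Only the 250 bases before the start were searched, so a CArG box or other word farther upstream would not be seen. The Prdm1 window, chr10:44458749-44458998 (-), lies inside the annotated span given above, before a start other than the outermost, and the Fosb window, chr7:19310046-19310295 (-), overlaps the end of its span, so positions in these 2 genes count from the start used in the promoter table. Within these bases no listed word was common to the 3 genes that fell, and a match is a description of letters, not a site. Rela itself fell by 0.89 on the log2 scale (SE 0.26, adjusted p = 0.0311), and Foxp3 was at -0.30 (SE 0.24, adjusted p = 0.463).

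Genes of effector Treg cells, listed here as dependent on IRF4, BATF or Blimp-1, were lower in most cases. That dependence was not tested in these data, and the list shares Ctla4 and Ikzf2 with the Treg and CD4 T cell markers. Of 22 such genes tested, 17 fell, 0 rose and 5 did not pass, with a median log2 fold change of -1.56, against 0.06 over all genes and -0.38 over genes of at least 50 mean CPM. That is 77.3% lower, against 8.52% of all genes and 23.8% of genes of at least 50 mean CPM. Of the 8 Treg and CD4 T cell markers, 6 were lower too, so a fall in most genes was not particular to this list. The chemokine receptor gene Cxcr3 was at 5.75 ± 3.94 CPM in deleted against 86.1 ± 32.7 CPM in control libraries (SD, n = 6 and 7), a log2 fold change of -3.90. The inhibitory receptor genes Tigit, at 5.75 ± 1.93 against 42.1 ± 18.5 CPM, and Klrg1, at 12.6 ± 3.60 against 113 ± 87.9 CPM, were at -2.87 and -3.16. In the covariate fit 5 of the 22 were lower and 0 higher, against 0.233% and 0.224% of all genes. The list was chosen with earlier results of these libraries known, so its count is not independent evidence.

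Other AP-1 and related bZIP genes gave no call. Of 14 tested, 0 passed in either direction and the median was -0.07. At unadjusted p under 0.05, which 17% of all genes passed as lower and 8.86% as higher, Mafk (-0.90, unadjusted p = 0.00689 by edgeR), a small Maf gene, and Nfil3 (-1.97, unadjusted p = 0.0077 by edgeR) were counted. DESeq2 called 1 of the 14 lower. Batf3, a close relative of Batf, was at 6.93 ± 2.81 CPM in deleted against 3.66 ± 1.90 CPM in control libraries (SD, n = 6 and 7), with a log2 fold change of 0.91 that did not pass the test.

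Of 23 kinase, phosphatase and ternary complex genes that act upstream of AP-1, 3 fell and 0 rose, with a median of -0.25. That is 13% lower, between the 8.52% of all genes and the 23.8% of genes of at least 50 mean CPM, and so not a result about this list. The 3 were Map2k3 (-0.79), Map2k7 (-0.80) and Srf (-0.73). Map2k3 encodes a kinase of p38, Map2k7 a kinase of JNK, and Srf encodes serum response factor, an activator of Fos. None of the 3 passed in the covariate fit. In the fit on genes of at least 50 mean CPM alone, 0 of 12 were lower and 4 higher, against 15.6% and 9.38% of its genes. Over all 5204 genes of that fit the median was 0.40 above that in the fit on all genes. Among 8 other interferon regulatory factor genes, 3 fell: Irf8 (-1.13), Irf7 (-1.11) and Irf1 (-1.09), while 5 did not pass. That is 37.5% lower, with a median of -0.525, against 8.52% of all genes and 23.8% of genes of at least 50 mean CPM. With the covariate 0 of the 8 were lower and 0 higher, against 0.233% and 0.224% of all genes.

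Immediate early and dissociation genes share signals with Fos and Junb and also respond to tissue handling. The list shares Dusp1 and Atf3 with other lists. Of 18 tested, 7 fell and 0 rose, with a median of -0.70. That is 38.9% lower, against 8.52% of all genes and 23.8% of genes of at least 50 mean CPM. Hspa1a (-3.81) and Hspa1b (-3.43), near-identical heat shock genes whose separate values are uncertain, and Egr2 (-1.18), an antigen receptor response gene, had the smallest p. In the covariate fit 2 of the 18 were lower and 0 higher, against 0.233% and 0.224% of all genes. Egr2 was no longer called there (adjusted p = 0.0989). The summed level of the list was 1091 to 1963 CPM in deleted against 1313 to 5008 CPM in control libraries, with a two-sided p of 0.0186 by exact permutation (adjusted p = 0.0336), and its part in the values of Fos, Fosb and Junb was not tested. Myeloid cells, which also hold much Fos, had marker sums of 133 to 184 CPM in deleted against 104 to 206 CPM in control libraries, with 0 of 9 markers called and S100a8 at 0 in 4 libraries. CD8 T and NK cell markers (0 of 6 called) and erythroid and platelet markers (0 of 5 called) summed to 80.1 to 155 and 34.0 to 67.4 CPM in deleted libraries, and to 86.6 to 152 and 27.3 to 65.8 CPM in control libraries.

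Genes of resting T cells, a list mostly of transcription factors, were called once. Of 12 tested, Id3 fell, at 88.9 ± 24.9 CPM in deleted against 178 ± 74.3 CPM in control libraries (SD, n = 6 and 7), and 11 did not pass, with a median of -0.16. That is 8.33% lower, near the 8.52% of all genes and under the 23.8% of genes of at least 50 mean CPM, and so not a result about this list. Tcf7 was at -0.52 and Klf3 at 0.45, neither past the test. In the covariate fit 0 were lower and 3 higher, against 0.233% and 0.224% of all genes. In the fit on genes of at least 50 mean CPM 1 was lower and 4 higher, against 15.6% and 9.38% of the genes of that fit.

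**Figure D4:**
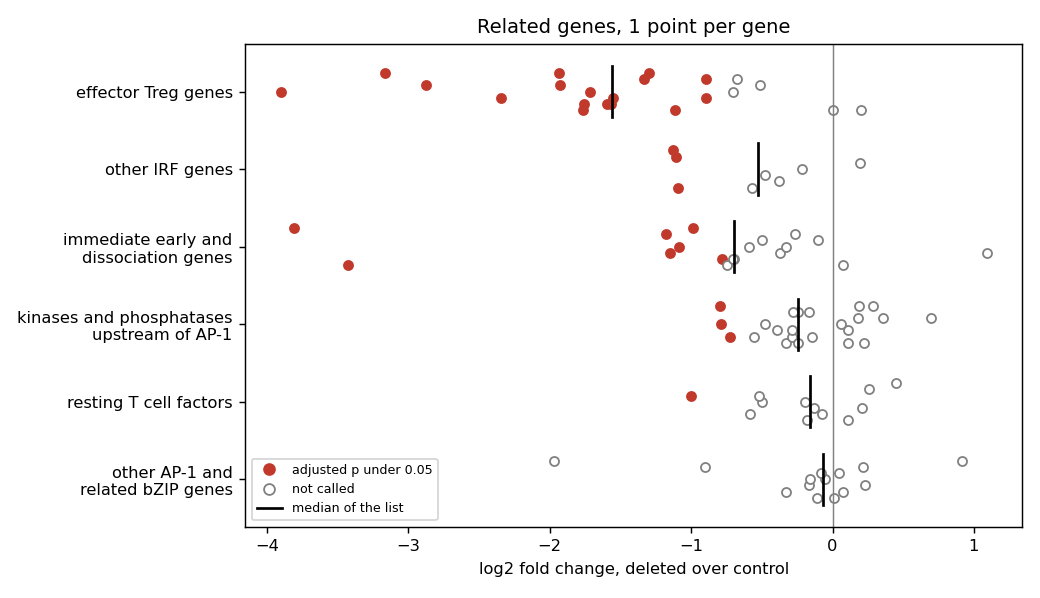
Each point is the log2 fold change of deleted over control for 1 gene, in red where the adjusted p was under 0.05, and the black line is the median of the list. The effector Treg genes have the lowest median, -1.56, and the other AP-1 and bZIP genes have a median of -0.07 with none called. Of all genes, 8.52% were called lower and 1.66% higher.

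Genes whose levels ran most like those of a member across the 13 libraries were found by the mean absolute difference of their centred log2 CPM, among 5199 genes of at least 50 mean CPM. For Batf they were Pglyrp1 (mean difference 0.27), H2-Q6 (0.32) and Cd82 (0.32), with log2 fold changes of -2.04, -1.81 and -2.24. For Junb they were Pde2a (0.19), Prdx2 (0.19) and Cdk4 (0.21), and for Fos they were Ccnd3 (0.18), Med15 (0.20) and Traf5 (0.21). Irf4 was nearest to Gpr83 (0.15), Rrnad1 (0.18) and Prpf18 (0.18), and Prdm1 to Atad3a (0.12), Msh6 (0.13) and Fmnl3 (0.14). H2-Q6 belongs to a multigene family, so its counts are uncertain. Centring kept the difference between the groups, so genes chosen this way have fold changes like the member's by construction.

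The authors' deposited table gave mean log2 fold changes of -2.29 for Batf, -1.47 for Junb and -1.12 for Fos, with mean false discovery rates of 1.25e-05, 0.00101 and 0.00369. In the authors' deposited table Irf4 was at -0.76 with a mean false discovery rate of 0.0755, and Jund at 0.06 with 0.864.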

How the data were processed

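Sorted cells were lysed, and cDNA was made with a SMART-Seq v4 low-input kit, per the labels' protocols. The authors deposited a table of raw counts per gene. The submitters' processing notes name featureCounts 2.0.1, edgeR 3.28, DESeq2 1.26.0, GRCm38 and mm10, and for aligner, annotation and strand the answer is "not given in the sources used here". A second table holds the authors' log2 fold changes, p-values and false discovery rates with columns named as means, per the file headers; over which tools these means run is not stated there.

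Genes were filtered by filterByExpr, scaled by TMM, and edgeR 4.0.16 under R 4.3.3 gave the test, with genotype as the only term over all 13 libraries. P-values were adjusted by Benjamini-Hochberg over all 24068 genes tested, with 0.05 as threshold. The SE of a log2 fold change is its size over the root of F. CPM are TMM-scaled counts per 1e+06 counts. The script was tested on simulated data. Alternatives were DESeq2 1.42.0, other scalings and filters, the replicate number as a block, the log2 receptor share as a covariate, libraries of similar receptor share (0.7 to 1.4%) and each library left out. The receptor share is over 1475 genes named Olfr or Vmn. Count ratios were compared by two-sided exact permutation tests on log2 values.

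Members, lists, ratios, motifs and most alternatives were chosen with earlier results of these data known. Named genes were the 9 members, Stk3, Stk4, Foxp3, Rela, the 3 genes of smallest p in each list and the 3 most alike genes of Fos, Junb, Batf, Irf4 and Prdm1; marker genes were named after their values were seen. Of gene numbers, 93.6% matched the RefSeq table.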

Additional observations from a re-analysis of the deposited data

Results flagged for a closer look

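A single library far from the rest of its group was looked for in 62 sets of 6 or 7 libraries (members, named genes, library measures and count ratios). It was found in 3, and chance gives about 3.1. Batf was at 211 CPM in control replicate 5, against 77.3 to 111 CPM in the other control libraries. The Junb/Jun ratio was 2.67 in deleted replicate 2, against 1.16 to 1.55 in the other deleted libraries. The Fos/Fosb ratio was 78.1 in control replicate 6, against 5.45 to 23.4 in the other control libraries, and Fosb rested on 17 counts there.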

How the results depend on the processing

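Batf was lower and past the threshold in every setting run. The called members remained Batf, Fos and Junb by count (3) under other scalings and filters, but only 1 passed with the receptor share covariate (Fos -0.70, Junb -0.81) and in libraries of similar receptor share (Fos -0.92, Junb -1.10); the cause was not tested. DESeq2 called 4. Low counts limit Fosb, Fosl2 and Batf in deleted libraries, and the receptor level limits low Jund values.

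Upper quartile scaling, which moved the median gene by 0.18, gave 761 genes higher and 1208 lower, 1 kinase gene lower, 1 resting T cell gene higher, Fosl2 at 0.018 and Jun at 0.011. Scaling by genes of at least 50 mean CPM, chosen after seeing the data, moved it by 0.37 and gave 1136 higher and 642 lower, kinase genes 0 lower and 3 higher, resting T cell genes 0 lower and 3 higher, 1 interferon regulatory factor gene lower, Fosl2 at 0.17, Jun at 0.21 and Prdm1 at 0.10. The fit on those genes alone gave 813 lower, kinase genes 0 lower and 4 higher, 8 effector Treg genes lower, 4 resting T cell genes higher and Jun at 0.17. DESeq2 size factors gave 1 kinase gene lower. DESeq2 gave 688 genes higher and 1 other bZIP gene lower.

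The receptor share covariate gave 54 genes higher and 56 lower, kinase genes 0 lower, effector genes 5 lower, resting T cell genes 0 lower and 3 higher, interferon regulatory factor genes 0 lower, immediate early genes 2 lower and Jun at 0.30. Libraries of similar receptor share gave 38 higher and 101 lower, kinase, resting T cell and interferon regulatory factor genes 0 lower, effector genes 7 lower and immediate early genes 3 lower. In those libraries Junb/Jund was -1.40 (two-sided exact permutation p = 0.0556), Fos/Fosb 0.18, Fos/Fosl2 -0.88 and Batf/Junb -0.70. With the receptor level taken off, Junb/Jund was -0.67 and Jun/Jund 0.52.

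Replicate numbers did not pair the libraries: correlations of same-numbered deviations ran between -0.32 and 0.41, and no deleted library was closest to the control of its own number. With the replicate number as a block, 121 genes were higher and 736 lower, 3 members were lower, kinase and resting T cell genes 0 lower, effector genes 11, interferon regulatory factor genes 1, immediate early genes 4, and Jund was at -0.015.

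With 1 library left out, 167 to 860 genes were higher and 1034 to 3245 lower, members 3 to 5, other bZIP genes 0 to 2, kinase genes 0 to 3, effector genes 14 to 19, immediate early genes 4 to 9, interferon regulatory factor genes 2 to 4 and resting T cell genes 0 to 1. Counts over all genes moved by over 1.5 times without deleted replicates 1, 2, 3, 5 or 7 or control replicates 2, 4, 5 or 6. Jund was -0.32 and -0.03 without deleted replicates 1 and 4, and up to 0.32 without another (deleted replicate 2); Fosl2 ran between -0.38 and 0.025, the last without control replicate 2. Jun/Jund ran between -0.27 and 0.069 (0.06 without deleted replicate 4, 0.04 without control replicate 1), Fos/Fosb between -0.52 and 0.12, Fos/Fosl2 between -1.18 and -0.74 (-1.05 without deleted replicate 4), and Fosb/Fosl2 between -1.15 and -0.39.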

Other observations

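Fos and Batf lie 212830 bases apart on chromosome 12 (start to start), with the bZIP gene Jdp2 between them. Jdp2 averaged 7.04 CPM in deleted against 7.86 CPM in control libraries (log2 fold change -0.16, adjusted p = 0.824). Of 10 genes tested within 250 kb of this stretch, Jdp2 included, 2 fell and 0 rose, with log2 fold changes between -0.90 and 0.50. Around Junb on chromosome 8, 5 of 29 genes fell and 1 rose, and Prdx2, a neighbour that is also among the genes most like Junb, was at -1.34 (SE 0.26, adjusted p = 0.0029). In both stretches the share that fell lies between the 8.52% of all genes and the 23.8% of genes of at least 50 mean CPM. The counts are therefore not a result about these stretches. Neighbours were not in the naming rule, and Jdp2 was chosen after its values were seen.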
